A study of Oryza sativa Japonica Group with 6 samples.

Results

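Lipid transfer proteins are small secreted proteins of plants with a conserved set of cysteines that folds them around a hydrophobic cavity, in which they bind fatty acids and other lipids. In many plant tissues they are made in the epidermis, where they are associated with the cuticle and with defence, and in lily a member of the family takes part in the adhesion of pollen tubes in the style. In the embryo sac the synergids sit beside the egg and receive the pollen tube, and the antipodals occupy the far end from it.

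The family drew attention because LTP-2 was high in synergids and low in antipodals on these arrays, so it was chosen by the same signals that are described here. Its members were then taken by name: every rice gene whose symbol or synonym in a RefSeq gene table (assembly ASM3414082v1) holds LTP as a lipid transfer protein name. That gave 6 genes, of which 5 had at least 1 probe set paired with that gene alone, and 7 probe sets in all, among 57258 non-control probe sets and 17905 genes on the array. The genes were LTP-2 (LOC4331362, also nsLTP2), LTP110-A (LOC4349601, also LTP110-B), LTPL1 (LOC4332993), LTP (LOC4351318, also PAPI) and LTP2-B (LOC4351317, also LTPB-1). LTP2-B had 3 probe sets and the others had 1 each, and LTP2-A (LOC9267894) had none paired with it here. The tables used here carry no descriptions, so LTPL1 is a member by its symbol only. In the RefSeq order LTP2-B and LTP are neighbours, with 0 protein-coding genes between them, and so are LTP110-A and LTP2-A.

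Synergids and antipodals of wild-type rice were measured on Affymetrix rice arrays, with 3 arrays of each cell type. All plants were of the japonica cultivar Katy, grown in a greenhouse, and the cells were dissected by hand, without enzymes, from ovules of florets at anthesis. The labelling protocol names egg cells and zygotes, so how many synergids or antipodals stand behind an array is unknown. The titles speak of biological replicates but name no separate plants, so the spread given below may be partly technical. Fewer cells of a type and less RNA per cell cannot be told apart in such samples.

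Each array had been scaled before deposit to the same trimmed mean, between 500.07 and 500.08, yet the median signal lay between 46.5 and 67.1 on the synergid arrays and between 54.4 and 170.3 on the antipodal arrays. The highest median belonged to antipodal array 2, which also correlated least with the others (Pearson r across tested probe sets at most 0.783) and had the brightest hybridisation spike-in controls, with a geometric mean of 60392, against 6311 to 12463 on the other 5. Because of it, each family probe set is also given as its percentile among all non-control probe sets on each array. A percentile is used here only to compare 1 probe set between arrays, since levels of different probe sets are not comparable. The files used here hold no detection calls.

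LTP-2 was high on every synergid array and low on every antipodal array. Its signals on synergid arrays 1, 2 and 3 were 4930, 17096 and 11066, and on antipodal arrays 1, 2 and 3 they were 85.4, 19.8 and 166. The groups did not overlap, and the lowest synergid signal was 29.7 times the highest antipodal signal. On their own arrays the synergid signals stood at percentiles 96.3, 99.4 and 98.8, and the antipodal signals at percentiles 56.8, 16.5 and 68.3. The antipodal value on array 2 thus lay below that array's median, while the other antipodal values lay somewhat above theirs.

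The fitted difference for LTP-2, on the log2(signal + 16) scale with limma, was 6.81 (SE 0.59, 95% interval 5.56 to 8.06), or 112-fold higher in synergids. Means were 11030 ± 6083 for synergids and 90.4 ± 73.3 for antipodals (SD over the 3 arrays of each). With antipodal signals this low and no detection calls, the fold holds for this pseudocount only and is no exact ratio of transcript levels. The family was singled out with this difference already known, so the values describe LTP-2 and are not a test of it. The synergid arrays differed among themselves by up to 3.47-fold, and array 1 was the lowest of them. Without antipodal array 2 the log2 fold change was 6.17, and with a pseudocount of 64 it was 6.11, so the size of the fold depends on the low antipodal signals.

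Log2 fold changes of the other family probe sets tested lay between -1.68 and 0.34. A probe set is called here when its p, adjusted over all tested probe sets by the Benjamini-Hochberg method, is under 0.05. Of the 7 family probe sets 6 passed the filter on low values, and 1 of these 6, that of LTP-2, was called higher in synergids, against 0.256% of all tested probe sets (88 of 34355). In limma 0 were called lower, against 0.064% of all (22 of 34355), and 0 reached an unadjusted p under 0.05 in that direction. LTP-2 was also the 1 probe set with every synergid array above every antipodal array, as in 6.17% of all tested probe sets. For 0 of the 6 was every synergid array below every antipodal array, against 7.26% of all. Log2 fold changes were positive for 2 of the 6 and negative for 4, with a median of -0.55, against -0.08 over all tested probe sets. The contrast is the one that singled out the family, so nothing is read from these shares.

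**Figure D1:**
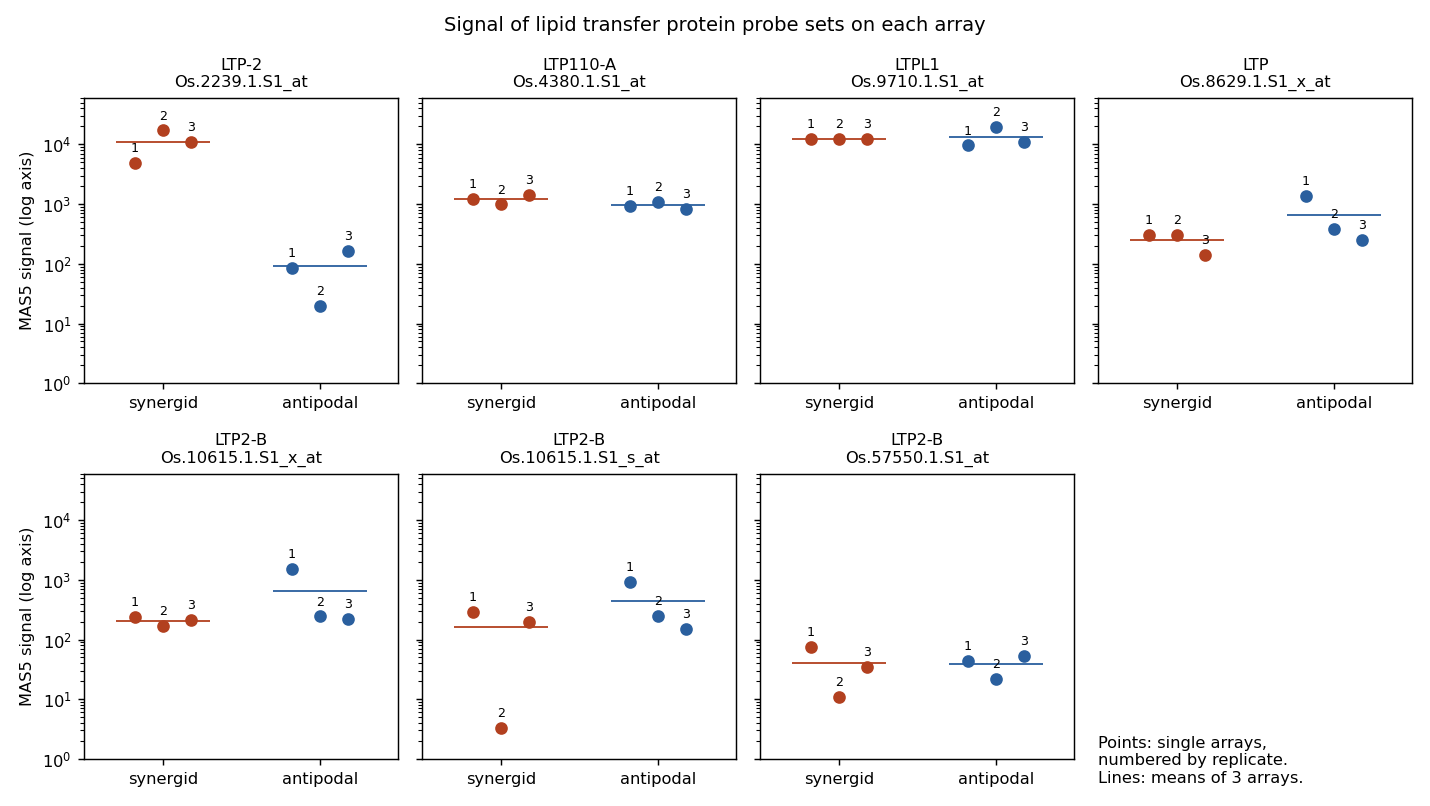
MAS5 signal (log axis) of the 7 lipid transfer protein probe sets on each array, with synergids left and antipodals right in each panel, points numbered by replicate and lines at the means of 3 arrays. LTP-2 separates the cell types (4930 to 17096 in synergids, 19.8 to 166 in antipodals), while LTP110-A and LTPL1 overlap and LTP and the x_at and s_at probe sets of LTP2-B are highest on antipodal array 1.

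LTP110-A, whose protein is known in rice for inhibiting fungal growth in vitro, gave overlapping signals in the cell types. Its signals were 1231, 986 and 1411 on synergid arrays 1, 2 and 3 and 925, 1098 and 821 on antipodal arrays 1, 2 and 3. Of the synergid arrays 2 lay above every antipodal array, and array 2 lay within the antipodal range. Means were 1209 ± 213 (SD, n = 3) in synergids and 948 ± 140 (SD, n = 3) in antipodals.

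The log2 fold change of LTP110-A was 0.34 (SE 0.37), with a 95% interval of -0.46 to 1.14. The interval spans 0 and reaches 2.20-fold higher in synergids. Its percentiles were 84.1 to 87.5 on the synergid arrays and 82.7 to 86.6 on the antipodal arrays, and these ranges overlapped too.

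LTPL1 was even across the synergid arrays and varied across the antipodal arrays. It had 12188, 12257 and 12390 on synergid arrays 1, 2 and 3, a range of 1.65% of their mean, and 9613, 19396 and 10900 on antipodal arrays 1, 2 and 3. Antipodal array 2 was above, and antipodal arrays 1 and 3 below, every synergid array. Means were 12278 ± 103 (SD, n = 3) in synergids and 13303 ± 5315 (SD, n = 3) in antipodals, and the spread among antipodals exceeded the difference.

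The log2 fold change of LTPL1 was -0.05 (SE 0.32, 95% interval -0.74 to 0.65), so the data allow up to 1.57-fold higher or 1.67-fold lower in synergids. Its percentiles were between 98.9 and 99.0 on the synergid arrays and between 98.4 and 99.4 on the antipodal arrays. The sign turned to 0.26 without antipodal array 2 and to 0.34 between the pair of arrays (1 of each cell type) written in the deposited table with at most 9 digits. It was 0.10 with median centring, which adds the same amount to every probe set.

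LTP and 2 of the 3 probe sets of LTP2-B, its neighbour, were highest on the same array, antipodal array 1. LTP had 306, 309 and 139 on synergid arrays 1, 2 and 3 and 1351, 388 and 247 on antipodal arrays 1, 2 and 3. Antipodal array 1 was 3.48 times the next highest array, antipodal array 2 was also above every synergid array, and antipodal array 3 lay within the synergid range. Means were 251 ± 97.5 (SD, n = 3) in synergids and 662 ± 601 (SD, n = 3) in antipodals, with a log2 fold change of -1.05 (SE 0.64, 95% interval -2.41 to 0.30). By percentile the order of the other arrays changed: LTP stood at 73.6, 73.5 and 64.2 on synergid arrays 1, 2 and 3 and at 87.3, 72.1 and 72.1 on antipodal arrays 1, 2 and 3, so antipodal array 2 was not above the synergid arrays on that scale.

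The first probe set of LTP2-B, with the ending x_at, had 238, 168 and 210 on synergid arrays 1, 2 and 3 and 1515, 243 and 221 on antipodal arrays 1, 2 and 3. Here antipodal array 1 was 6.22 times the next highest array, and the other 5 arrays lay between 168 and 243. Means were 205 ± 35.2 (SD, n = 3) in synergids and 660 ± 741 (SD, n = 3) in antipodals, with a log2 fold change of -1.05 (SE 0.68, 95% interval -2.51 to 0.41). Its percentiles were 71.2, 67.2 and 68.9 on synergid arrays 1, 2 and 3 and 88.3, 59.7 and 71.1 on antipodal arrays 1, 2 and 3, so on that scale antipodal array 2 was the lowest of all.

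The difference for LTP and for the x_at probe set of LTP2-B rested on antipodal array 1. Without that array the log2 fold change was -0.37 for LTP and -0.18 for the x_at probe set of LTP2-B. Within the 4 arrays written in the deposited table with up to 10 digits, which leave out synergid array 1 and antipodal array 1, it was -0.54 and -0.28. Between the pair of arrays written with at most 9 digits, 1 of each cell type, it was -2.09 and -2.59, with no replicate check. For LTP-2 the same comparisons gave 7.41 within the 4 arrays and 5.61 within the pair.

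The second probe set of LTP2-B, with the ending s_at, is built on the same sequence as the x_at one. It had 288, 3.25 and 196 on synergid arrays 1, 2 and 3 and 933, 245 and 150 on antipodal arrays 1, 2 and 3. It also peaked on antipodal array 1, at 3.24 times the next highest array. On synergid array 2, however, it read 3.25 where the x_at probe set read 168, so both probe sets disagree there. Its percentiles were 72.9, 5.16 and 68.1 on synergid arrays 1, 2 and 3 and 84.0, 59.9 and 67.3 on antipodal arrays 1, 2 and 3.

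Means of the s_at probe set were 162 ± 145 (SD, n = 3) in synergids and 443 ± 427 (SD, n = 3) in antipodals, and its log2 fold change was -1.68 (SE 0.96, 95% interval -3.74 to 0.37). That value was -0.44 without synergid array 2, -0.96 without antipodal array 1 and -2.43 without synergid array 1. It was -1.71 within the 4 arrays of the longer number format and -1.64 between the pair of the shorter one. It depended on the pseudocount too, at -2.39 with 1 and -1.14 with 64. Leaving out any 1 of these 3 arrays thus moved the fold by over 1.5 times.

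The third probe set of LTP2-B, built on another sequence and with the plain ending at, was dim on all 6 arrays. It had 76.0, 10.8 and 34.5 on synergid arrays 1, 2 and 3 and 43.7, 21.9 and 52.7 on antipodal arrays 1, 2 and 3, and the groups overlapped. Its percentiles lay between 22.4 and 58.7 in synergids and between 18.1 and 49.2 in antipodals. It did not show the peak on antipodal array 1. Its mean log2 value of 5.70 fell just below the filter at 5.72, so it was not tested. In the fit with no filter its log2 fold change was -0.11 (SE 0.85, 95% interval -1.88 to 1.67).

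The x_at and s_at endings mark probe sets whose probes also match other transcripts. With LTP2-A close to LTP2-B by name and LTP its neighbour, the signal of LTP, whose probe set is an x_at one, and of 2 of the LTP2-B probe sets cannot be assigned to 1 gene with certainty. The probe sets of LTP-2, LTP110-A and LTPL1 carry no such ending.

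**Figure D2:**
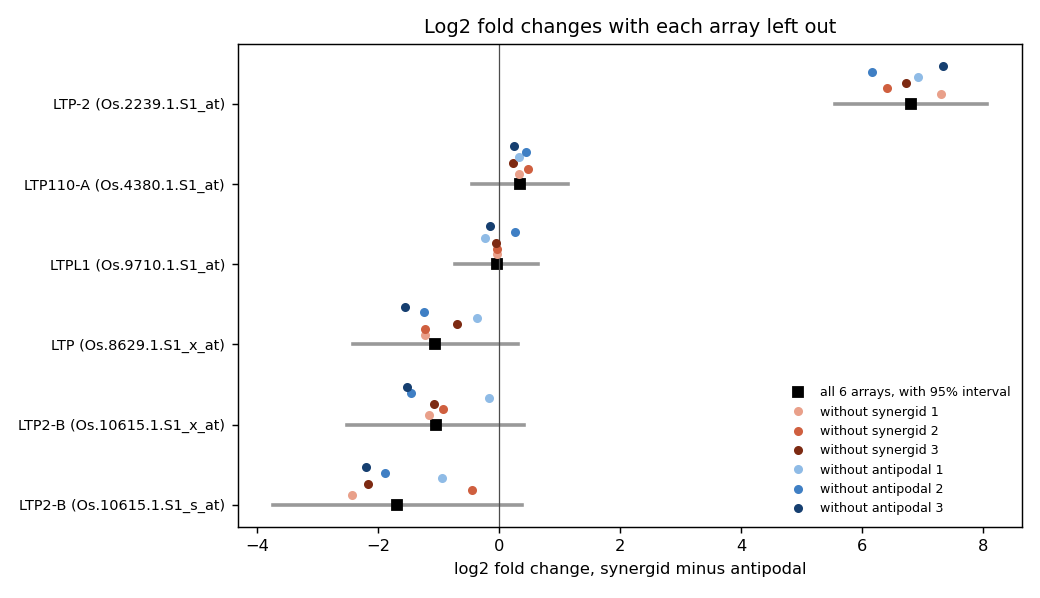
Log2 fold change, synergid minus antipodal, of the 6 tested lipid transfer protein probe sets from all 6 arrays (squares, with the 95% interval of the limma fit as a line) and with each array left out in turn (coloured points). LTP-2 stays between 6.17 and 7.35, whereas LTP and the x_at probe set of LTP2-B move to -0.37 and -0.18 without antipodal array 1.

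A peak on antipodal array 1 alone was uncommon. A signal at least 3-fold above each other array was found there for 108 of the 34355 tested probe sets (0.314%) and for 3 of the 6 family probe sets, which come from the neighbours LTP and LTP2-B and may share transcripts. The 3-fold limit was chosen after the family's values were seen. The corresponding share was 9.63% on antipodal array 2 and 0.0262% on antipodal array 3, and on synergid arrays 1, 2 and 3 it was 0.0378%, 0.303% and 0.0786%.

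**Figure D3:**
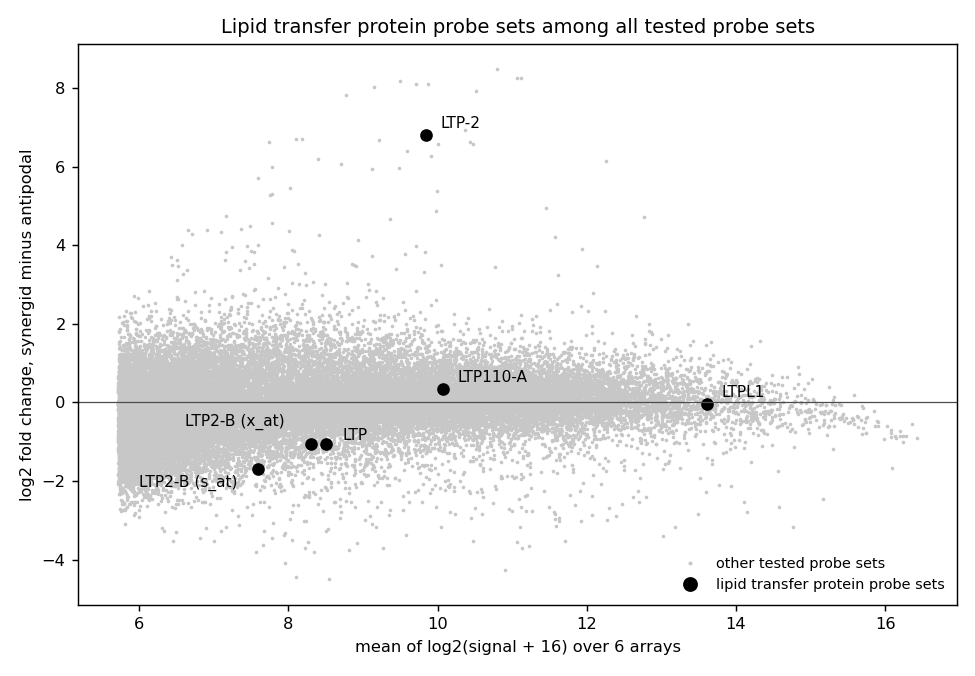
Log2 fold change, synergid minus antipodal, against the mean of log2(signal + 16) over 6 arrays for all 34355 tested probe sets (grey) and the 6 tested lipid transfer protein probe sets (black). LTP-2 lies at 6.81, near the top of the cloud, and the other family members lie between -1.68 and 0.34, inside it.

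Levels of other cell types' markers were set beside these patterns. For egg cell, zygote and embryo 2 genes were matched by symbol, WOX8 (also WOX13) and WOX9. Whether the rice gene matched as WOX8 marks these cells is not known here. The summed signal of both genes was 358 to 552 on the synergid arrays and 108 to 290 on the antipodal arrays. Both genes had every synergid array above every antipodal array, as did LTP-2 and 6.17% of all tested probe sets. Neither WOX gene was called (limma adjusted p = 0.623 for WOX8 and 0.607 for WOX9). Both log2 fold changes were positive, with a median of 1.46 (SE 0.58 for WOX8 and 0.81 for WOX9). The lack of a call therefore does not show equal levels. LTP-2 was chosen by this contrast, so its call is not set against theirs. The brighter, WOX8, had means of 352 ± 73.5 for synergids and 152 ± 74.9 for antipodals (SD over 3 arrays each).

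The ovule sporophyte list of 4 genes, all above 16 on all arrays, summed to 32737 to 42084 in synergids and 22488 to 37789 in antipodals. Most of that sum was ANT, with means of 28375 ± 2861 for synergids and 28895 ± 8408 for antipodals (SD over 3 arrays each). Of the list 0 were called by limma, against 0.256% of all tested probe sets called higher and 0.064% called lower. MADS13, MADS21 and MADS29 had every synergid array above every antipodal array, as in 6.17% of all tested probe sets. They also had an unadjusted limma p under 0.05, which 4.29% of all tested probe sets passed in that direction. MADS13, for one, had 1623 ± 421 for synergids and 510 ± 245 for antipodals (SD over 3 arrays each).

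The epidermis list, 8 Roc homeobox genes of which 6 were above 16 on all arrays, summed to 22766 to 29162 in synergids and 15916 to 25203 in antipodals. The brightest, Roc5 (GL2-5), had means of 10348 ± 2520 for synergids and 7878 ± 2637 for antipodals (SD over 3 arrays each). Log2 fold changes had both signs among its members, at 1.19 for Roc2 (GL2-2) and -1.92 for Roc3 (GL2-3), neither of them called. At an unadjusted limma p under 0.05, 1 gene of the list was higher and 1 lower in synergids. Of all tested probe sets 4.29% passed higher and 4.01% lower. Roc3 had every synergid array below every antipodal array, as in 7.26% of all tested probe sets. Roc3 was called lower without synergid array 1 (-2.33, limma adjusted p = 0.0373) and within the 4 arrays of the longer number format (-2.40, limma adjusted p = 0.0332). The part of these cell types in the difference of LTP-2 was not tested.

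On antipodal array 1, where LTP and LTP2-B peaked, several marker lists held a gene at its highest and another that was not. These were the ovule sporophyte, epidermis, endosperm, vascular and pollen lists. Of the ovule sporophyte genes ANT was at its highest on that array (35671), while MADS13, MADS21 and MADS29 were not. The epidermis sum was the lowest of all 6 arrays there, at 15916, but Roc6 (GL2-6, 2328) and Roc8 (GL2-8, 66.1) were at their highest. The endosperm sum was the highest of all 6 arrays, at 1557, nearly all of it the starch synthase gene Wx (1552), while GLUA-1 read 5.11. The vascular sum was also the highest, at 28933, nearly all of it Os8N3 (also SWEET11, 28720), while OsSUT1 was at its lowest, 213.

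The pollen and tapetum sum was highest there too, at 166, with C6 at its highest (85.5) and TDR, at 80.2, below synergid arrays 2 and 3 (91.4 and 82.1). Neither gene was above 16 on all arrays. Over the groups, the pollen and tapetum sums were 53.0 to 93.7 in synergids and 38.5 to 166 in antipodals, the endosperm sums 582 to 1240 in synergids and 215 to 1557 in antipodals, and the vascular sums 16583 to 24712 in synergids and 19102 to 28933 in antipodals. The green tissue list (3 genes, CAB2R the brightest) summed to 3923 to 8921 in synergids and 5735 to 11493 in antipodals. The part of these cell types in the peak was not tested.

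The synergid search pattern matched 1 gene, a ferredoxin (54.0 to 398 in synergids and 85.6 to 668 in antipodals) that is no synergid marker. The cell type label of the synergid arrays could therefore not be checked in this way. No antipodal marker was known with certainty, so the label of the antipodal arrays was not checked either.

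A list of lipid metabolism and surface lipid genes held no gene past the threshold. It matched 11 genes, of which 10 were tested, and 0 were called in either direction by limma (0 also at an unadjusted p under 0.05, which 4.29% of all tested probe sets passed higher and 4.01% lower in synergids). Log2 fold changes were positive for 7 and negative for 3, with a median of 0.12, against -0.08 over all tested probe sets. The brightest member, the phospholipase D gene PLD1, had means of 12640 ± 1373 (SD, n = 3) in synergids and 9098 ± 1362 (SD, n = 3) in antipodals. Its log2 fold change was 0.48 (SE 0.29, limma adjusted p = 0.710). PLD1 and KCS20, alone among the tested genes of the list, had every synergid array above every antipodal array, as in 6.17% of all tested probe sets. The matched symbols wsl3, wsl6 and wsl8 are known in rice for white-striped leaves and not for wax. Without them 6 of 7 were positive and 1 negative, with a median of 0.24.

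The same list held C6, known as OsC6 in rice, a lipid transfer protein of the anther tapetum that the family rule does not catch by name. Its signals were low on all arrays, at 50.4, 1.66 and 11.6 on synergid arrays 1, 2 and 3 and 85.5, 24.3 and 69.4 on antipodal arrays 1, 2 and 3. It was not tested because its mean lay under the filter. Across all these lists 29 distinct genes were tested and 0 were called by limma, while 5 had an unadjusted p under 0.05, 4 higher and 1 lower in synergids, against 8.30% of all tested probe sets (2851 of 34355).

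The genes whose values most resembled those of LTP-2 across the 6 arrays were found by Pearson r on the log2(signal + 16) scale. Among 15931 genes, each represented by its brightest probe set, the top values were 0.988 for LOC4346854, 0.988 for ADPRT-1 (LOC4343013) and 0.986 for LOC4352535. Next among the 2204 genes with a name came cbp3, a serine carboxypeptidase gene (0.985), MADS3, a floral MADS-box gene (0.973), OsCASPL5B1 (0.968) and OC-VIII, a cystatin gene (0.967). The 6 points fall in 2 cell types, so r tends to be high for any gene that is clearly higher in synergids, and 308 genes had an r of at least 0.9.

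The genes like LTP-2 in shape differed from it in size. The largest log2 fold change among those named was 4.71, for cbp3. That gene had 30313, 60202 and 24556 on synergid arrays 1, 2 and 3 and 1950, 759 and 1629 on antipodal arrays 1, 2 and 3. LOC4346854 had 11867, 22841 and 12487 on synergid arrays 1, 2 and 3 and 1943, 736 and 1680 on antipodal arrays 1, 2 and 3, a log2 fold change of 3.47. ADPRT-1 had means of 7501 ± 520 (SD, n = 3) in synergids and 3540 ± 680 (SD, n = 3) in antipodals (log2 fold change 1.09). As with LTP-2, the lowest signal of each of these genes was on antipodal array 2.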

How the data were processed

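The deposited table gives the authors' linear signal intensity of each probe set on each array. Per the submitters' processing notes the software was GCOS 2.0 with MAS5, which summarises each array separately. All 6 columns were matched to samples by name. The equal trimmed means show a scaling before deposit, whose steps are not given in the sources used here. Genes were named from the platform annotation through a RefSeq gene table (assembly ASM3414082v1), which all 17905 genes matched. No genome or protein sequences were used, so a planned search of proteins for the cysteine motif of the family was not run.

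Signals were taken as log2(signal + 16). The 123 control probe sets and the 40% of the rest with the lowest mean were left out, which left 34355. On this scale the folds of dim probe sets are understated. Synergids were compared with antipodals by limma 3.58.1 in R 4.3.3 (lmFit, eBayes with an intensity trend, group as the only term, 4 residual degrees of freedom). The script was tested on simulated data. The small number of arrays limits the precision, and the spread of each probe set is drawn towards that of probe sets of like intensity (10.6 prior degrees of freedom). Figures were drawn with matplotlib 3.10.9.

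The members, lists and tests were chosen with earlier results of these data known. All family probe sets are named. Of the other lists the member with the highest mean is named where none was called, with further members added after their values were seen, and for likeness to LTP-2 the top 3 genes and the top 5 with a name. C6 was named for its role. Alternatives covered the pseudocount, filter, normalization, intensity trend, replicate number, single arrays and, added after the data were seen, the number format of the columns.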

Additional observations from a re-analysis of the deposited data

How the results depend on the processing

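LTP-2 was called in all 16 other fits, and no other family probe set was called in any. All fits use the same arrays or some of them. LTP-2 was chosen by this contrast on these arrays, so its repeated calls are no further evidence. Its log2 fold change ran from 6.17 to 7.35 with 1 array left out, was 6.11 with a pseudocount of 64 and 7.19 with 1, and was 5.61 between the pair of arrays of the shorter number format, a value without a test. Arrays with the same replicate number had weakly correlated deviations from their group means (0.218, 0.116 and 0.0197 for replicates 1, 2 and 3). Whether the replicate numbers pair the arrays is unknown. With the replicate number as a block LTP-2 kept 6.81, and calls over all probe sets became 149 higher and 144 lower, against 88 and 22. Over all fits those calls ran from 31 to 239 higher and from 0 to 221 lower, with 73 and 3 after quantile normalization and 77 and 2 after median centring. These scalings moved the median log2 fold change of all tested probe sets to 0.04 and 0.07, against -0.08. In the other lists, 0 genes were called higher in any fit. The number called lower ran from 0 to 1 with 1 array left out, and was 1 within the 4 arrays of the longer number format. That gene was Roc3 (LOC4349488) both times, the first of them without synergid array 1, and the cause was not tested. The results planned for genes with the cysteine motif were not run, for want of sequences.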

Other observations

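Other named genes with a signal on antipodal array 1 at least 3-fold above each other array, as for LTP and LTP2-B, were looked up after those values were seen. There were 13 such probe sets outside the family, and the 5 with the highest ratio to the next array are given, as values only. One of 2 aquaporin genes among these 5, LOC4343122, had 32.5, 30.4 and 122 on synergid arrays 1, 2 and 3 and 1963, 221 and 45.7 on antipodal arrays 1, 2 and 3, so antipodal array 1 was 8.90 times the next. EXP1 (LOC4335222), an expansin gene, had 201, 150 and 88.6 on synergid arrays 1, 2 and 3 and 2268, 294 and 149 on antipodal arrays 1, 2 and 3, 7.72 times the next. ML (LOC4326471) had 50.0, 65.0 and 53.6 on synergid arrays 1, 2 and 3 and 688, 9.53 and 138 on antipodal arrays 1, 2 and 3, 4.99 times the next. OsPIP2;2 (LOC4330049), the other aquaporin gene, had 998, 245 and 500 on synergid arrays 1, 2 and 3 and 4307, 901 and 964 on antipodal arrays 1, 2 and 3, 4.32 times the next. RAB16D (LOC4350451), a dehydrin gene, had 4047, 432 and 698 on synergid arrays 1, 2 and 3 and 24084, 4332 and 5869 on antipodal arrays 1, 2 and 3, 4.10 times the next. For LOC4343122 and ML another probe set of the gene had a higher mean, and that brighter probe set did not reach the 3-fold limit. The other 8 ratios lay between 3.09 and 3.83.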
